A study of Marchantia polymorpha with 12 samples.

Results

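The U chromosome is the sex chromosome of female plants of the liverwort Marchantia polymorpha. The 46 genes described here are those whose identifiers begin with MpUg, taken from 18336 genes in the deposited table. They are represented by 59 transcript models. MpUg00370, listed as MpBPCU, was left out. The rule uses the identifier and no measured value.

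Liverwort thalli are haploid, so a female carries a single U and no V chromosome, and a male carries a single V and no U. The sex chromosomes do not recombine with each other. Some of their genes are related pairs, one on each chromosome, that descend from a common ancestral gene. Others have no counterpart in the opposite sex. Genes with a sex-specific role can be silent in vegetative thalli and active only in sexual organs.

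RNA from thalli with rhizoids grown from gemmae for 3 weeks was sequenced in 12 libraries, 3 for each of 4 groups. Tak-1 is the male wild type and Tak-2 the female wild type. Mpfer-1 is a male line labelled as a knockdown of MpFER, a receptor-like kinase gene, and Mpmri-1 a female line labelled as a knockdown of MpMRI, a kinase gene. Each mutant group is 1 line, so line, targeted gene and genetic background cannot be told apart, and in a comparison of the mutants sex is added to these. Nothing in the labels says whether replicates A, B and C were separate cultures, so p-values measure the spread between these libraries.

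Library totals ran from 25548038 to 35313222 estimated counts. MpMRI itself was higher, not lower, in the libraries labelled Mpmri-1 (649 to 764 CPM) than in Tak-2 (264 to 269 CPM), and directions drawn from those libraries rest on the label. In bulk RNA, fewer cells of a type and less RNA per cell cannot be told apart. CPM are counts scaled to library size with TMM factors. Of the rhizoid and thallus markers found in the table, MpRSL1 lay between 8.70 and 20.3 CPM over all libraries, MpWIP between 36.0 and 59.0 CPM and MpNOP1 between 63.2 and 94.1 CPM. Of the genes of sexual development, MpBNB did not exceed 0.068 CPM, and MpCKI1 lay between 14.3 and 26.9 CPM. MpFGMYB lay between 3.24 and 4.89 CPM in males and did not exceed 0.068 CPM in females. Its antisense partner can share its reads if strand was not used in counting, which was not tested. The kit keeps strand, but whether counting used it is not stated. Marker genes for rhizoids and thallus, gemma cups, sexual development and sporophytes were compared library by library. Of 18 outside the ASLBD family, 5 were higher and 2 lower in every library labelled Mpmri-1 than in every Tak-2 library. Of 21 ASLBD genes, listed with sexual development, 2 were higher and 7 lower. In this comparison 64.1% of all genes tested were called by edgeR, which is a different measure. The share of all genes that separate library by library was not obtained, so these marker counts have no background. Several of the listed genes were at or near 0 CPM and could hardly separate. MpRKD fell outside the Tak-2 range of 146 to 153 CPM, at 81.3 to 106 CPM, and the gemma cup gene MpGCAM1 outside 0.34 to 0.417 CPM, at 2.86 to 4.22 CPM. The other gemma cup gene, MpKAR, did not separate these groups: its libraries overlapped, with means of 28.3 CPM (Tak-2) and 26.5 CPM (Mpmri-1). The part of these markers in the changes of U genes was not tested. Of 46 U genes, 6 have a symbol in the reference table: MpLOVU, MpRAB11AX, MpMYCX, MpROS1x, Mp1R-MYB21 and Mp3R-MYB7. As a check of the sex labels, chosen after values were seen, 27 of 93 V chromosome genes were expressed in every male library, and 18 of these had 0 counts in all 6 female libraries. Between the wild types MpVg01240 went the other way, with 197108 to 424935 counts in a Tak-2 library and 5478 to 66694 in Tak-1. The mutant groups overlapped, with 11943 to 28560 in a library labelled Mpmri-1 and 5222 to 12464 in Mpfer-1. Levels are not corrected for transcript length, so they are compared between libraries for each gene and not between genes.

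In Tak-2 thalli, 31 of 46 U genes (67.4%) were expressed, with at least 1 CPM in each of the 3 libraries. By the same threshold, 64.1% of all 18336 genes were expressed. A further 5 U genes had some counts but stayed below the threshold in at least 1 library, and 10 had 0 counts over the group. Of the 31 expressed genes, 27 had a mean of at least 10 CPM. The means ran from 1.82 to 739 CPM with a median of 61.0 CPM. Replicates were close: the SD was a median of 3.36% of the mean, between 0.903% and 16.7%.

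MpRAB11AX (MpUg00350), a small GTPase of the RAB11 family that acts in vesicle traffic, stood at 200, 215 and 227 CPM in Tak-2 (replicates A, B and C, the order used throughout). MpMYCX (MpUg00430), a transcription factor of the MYC family, which mediates the jasmonate-type response in plants, had 50.4, 49.5 and 47.7 CPM. MpLOVU (MpUg00050) had 98.9, 106 and 98.0 CPM. The other 3 genes with a symbol were near or at 0. MpROS1x (MpUg00470), named after a DNA demethylase known from Arabidopsis, had 3, 12 and 7 counts in Tak-2. Of the transcription factor genes of the MYB family, Mp3R-MYB7 (MpUg00230) had 0 counts in all 12 libraries, and Mp1R-MYB21 (MpUg00200) had 0 counts in Tak-2. A count of 0 over a group allows up to 3 counts, a limit that covers counting error only.

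The genes with the most reads in Tak-2 included several without a symbol, whose roles are not annotated in the files. MpUg00020 had 274, 290 and 272 CPM, MpUg00300 had 126, 132.5 and 123 CPM, and MpUg00130 had 117, 116 and 118.5 CPM. MpUg00450 and MpUg00010 had group means of 104 and 102 CPM. MpUg00030 (91.3 CPM) and MpUg00320 (81.3 CPM) followed. MpUg00330 took the most reads of the U genes, at 744, 725 and 747 CPM. It held between 26.4% and 27.6% of all U counts in a Tak-2 library.

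**Figure D1:**
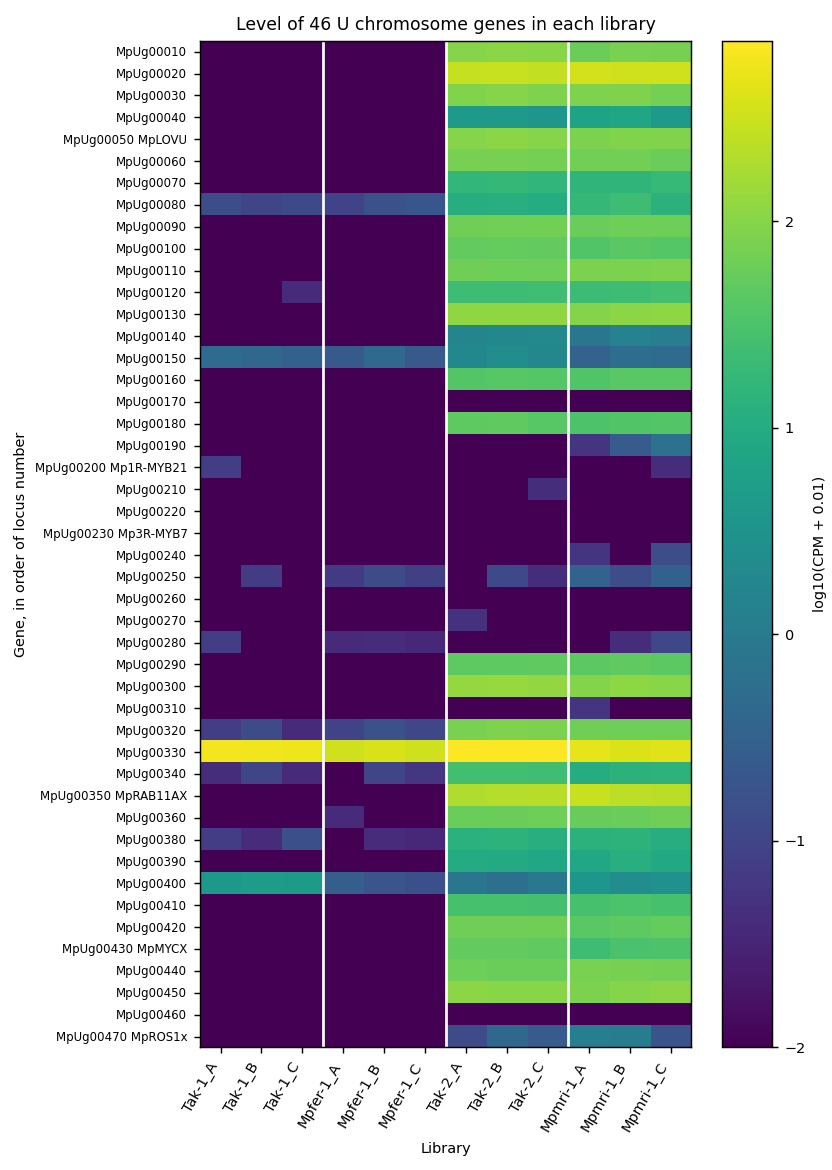
Level of the 46 U chromosome genes (rows, in order of locus number) in the 12 libraries (columns), as log10(CPM + 0.01). In 23 of 46 rows the gene was expressed in Tak-2 and at 0 in the 6 male libraries. MpUg00330 is bright in all 12. The rows MpUg00190 to MpUg00280 are mostly dark, with at most 0.659 CPM (MpUg00190 in Mpmri-1 replicate C).

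The 15 genes not expressed in Tak-2 were not spread evenly along the numbering. A run of 10 of them, MpUg00190 to MpUg00280, is consecutive in the table. None of these 10 reached 1 CPM in all 3 libraries of any group, and the highest value of any of them in a library was 20 counts. Together they had 6 counts over Tak-2, 58 over the libraries labelled Mpmri-1, 6 over Tak-1 and 12 over Mpfer-1. The run was picked for its low counts, so all 31 expressed genes had to lie among the 36 members outside it. The spacing was not tested. The remaining members that were not expressed were MpUg00170, MpUg00310 and MpUg00460, with at most 1 count in a library, MpROS1x, and MpUg00400, which is described below.

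The assembly MpTak2_v7.1, whose build may differ from that of the deposited table, lists 63 loci on U, of which 16 have no row in the table. All 16 of these lie between MpUg00180 and MpUg00290, the neighbours of the run with few or no counts, where the assembly places 26 loci.

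Which U genes changed in the female line was asked by setting the libraries labelled Mpmri-1 against Tak-2. Of 46 U genes, 33 passed the filter on low counts. Of these, 17 (51.5%) were called at an adjusted p under 0.05, 6 higher and 11 lower. The background is high: 64.1% of all 14044 genes tested were called in this comparison, 33.0% higher and 31.1% lower. Over the alternatives tried, between 15 and 23 U genes were called, the most with limma voom, and the difference between the shares was not tested. Changes were small. The median absolute log2 fold change was 0.30 over the 33 U genes and 0.50 over all genes, and 2 U genes were called with a log2 change of 1 or more in size, against 24.7% of all genes. Both of these, MpUg00150 and MpUg00400, also had reads in male libraries, and the origin of those reads was not tested. The median log2 fold change of the 33 U genes was -0.14, against 0.0010 over all genes. With library totals alone for scaling, the median was -0.13 over all genes and -0.27 over the U genes, and 2 of 17 called U genes were higher (11.8% in place of 35.3%). Without Mpmri-1 replicate A the U median was -0.046.

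**Figure D2:**
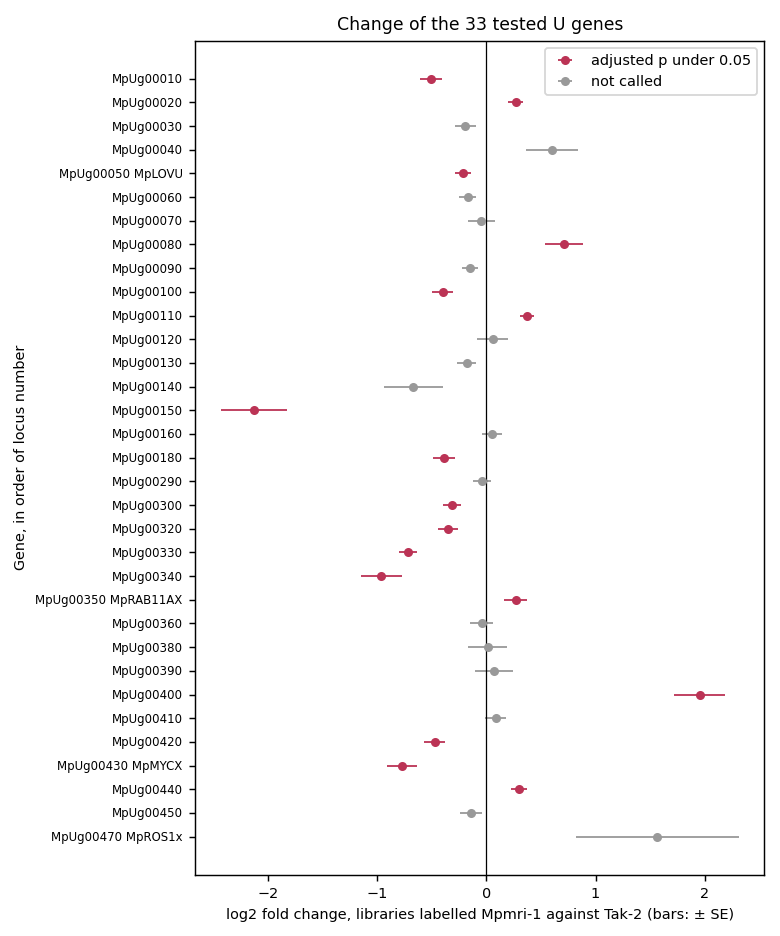
Log2 fold change of the 33 tested U genes in the libraries labelled Mpmri-1 against Tak-2 (x axis), in order of locus number (y axis); bars are ± SE and red points were called by edgeR. Most points lie within 1 of 0; MpUg00150 lies at -2.13 and MpUg00400 at 1.96.

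Summed over the 38 U genes without reads above the limit in males, the level in Tak-2 was 1824, 1879 and 1830 CPM. The libraries labelled Mpmri-1 reached 1776, 1824 and 1799 CPM. The mean was 97.6% of that in Tak-2 on this scale and 88.7% by library totals. Called genes moved in both directions.

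Among the genes that fell, MpMYCX went from 50.4, 49.5 and 47.7 CPM to 23.0, 30.2 and 33.0 CPM. Every library labelled Mpmri-1 lay below every Tak-2 library, and replicate A was the lowest. By edgeR this was a log2 fold change of -0.77 (SE 0.14, adjusted p 0.00133). MpUg00340 had 25.1, 25.2 and 24.3 CPM in Tak-2, and the libraries labelled Mpmri-1 had 10.2, 13.7 and 14.3 CPM of it. Again replicate A was the lowest and the groups did not overlap (log2 fold change -0.96, SE 0.19, edgeR adjusted p 0.000847). MpUg00010 went from 99.3, 105 and 101 CPM to 61.3, 79.2 and 74.3 CPM (log2 fold change -0.51, SE 0.10, edgeR adjusted p 0.00282). MpUg00420, whose number is next to that of MpMYCX, fell by 0.47 on the log2 scale. MpUg00100, MpUg00180, MpUg00300 and MpUg00320 were also called lower, at -0.40, -0.39, -0.32 and -0.35. MpUg00320, MpUg00330 and MpUg00340, which follow each other in number, all fell. MpLOVU was at the edge of the threshold, with a log2 fold change of -0.21 (SE 0.076, edgeR adjusted p 0.0390), and was not called when any single Tak-2 library or Mpmri-1 replicate A was left out (adjusted p 0.0628 to 0.116).

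The largest fall was that of MpUg00150, a gene with few reads and no symbol. It had 45, 66 and 53 counts in Tak-2 (1.875, 2.42 and 1.80 CPM). The libraries labelled Mpmri-1 held 7, 16 and 15 counts (0.328, 0.539 and 0.494 CPM), a 4.35-fold lower level. The groups were far apart, with a log2 fold change of -2.13 (SE 0.30, edgeR adjusted p 7.42e-05). Male libraries also held reads of this gene, 15, 13 and 11 counts in Tak-1 and 8, 15 and 9 in Mpfer-1. The level in the libraries labelled Mpmri-1 (0.454 ± 0.111 CPM, SD, n = 3) overlapped with that of Tak-1 (0.408 ± 0.0926 CPM). Against Mpfer-1 (0.304 ± 0.137 CPM) its log2 fold change was 0.62 (SE 0.36), which was not called (edgeR adjusted p 0.163; 51.4% of all genes were called between these lines). Without Mpfer-1 replicate B that value was 1.003 and was called (adjusted p 0.0387).

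Of the 6 genes that rose, MpUg00400 and MpUg00080 were called under every alternative tried. MpUg00080 went from 11.1, 11.4 and 10.4 CPM in Tak-2 to 17.8, 22.6 and 13.55 CPM, with replicate B highest and all 3 above Tak-2 (log2 fold change 0.71, SE 0.18, edgeR adjusted p 0.00381). MpUg00110 had 64.9, 63.5 and 64.0 CPM in Tak-2 and rose to 80.5, 83.1 and 85.9 CPM (log2 fold change 0.38, SE 0.066, edgeR adjusted p 0.00133). MpUg00440 and MpUg00020 rose by less, with log2 fold changes of 0.30 and 0.27. These last 3 calls were lost under library totals without TMM, at 0.24, 0.16 and 0.13. MpRAB11AX had 293, 244 and 236 CPM, highest in replicate A, against 200, 215 and 227 CPM in Tak-2. Its log2 fold change of 0.27 (SE 0.10, edgeR adjusted p 0.0486) was past the threshold by little. It was not called in 10 of 15 alternatives, among them each Tak-2 library left out in turn and Mpmri-1 replicate A or B left out (adjusted p 0.0575 to 0.16).

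The other 16 tested genes were not called, with log2 fold changes between -0.67 and 1.57. The upper end was MpROS1x, of which the libraries labelled Mpmri-1 held 26, 33 and 5 counts. Replicate C lay within the Tak-2 range of 3 to 12 counts, and the SE of the log2 fold change was 0.74 (edgeR adjusted p 0.0986). Without replicate C it was 2.08 and was called (adjusted p 0.00494). The lower end was MpUg00140, at 1.625, 1.87 and 1.97 CPM in Tak-2 against 0.797, 1.415 and 1.19 CPM (edgeR adjusted p 0.0589). It was called in 3 of 15 alternatives: by library totals, with limma voom and without Mpmri-1 replicate B. Between these ends, MpUg00040 had a mean of 3.999 ± 0.406 CPM (SD, n = 3) in Tak-2, rather than the 6.08 ± 1.66 CPM of the other female group, with overlapping libraries (log2 fold change 0.60, edgeR adjusted p 0.0557). It was called in 4 of 15 alternatives: with the replicate block, DESeq2, limma voom, and without Mpmri-1 replicate C, where the log2 fold change was 0.81 (edgeR adjusted p 0.00765). MpUg00030, MpUg00060, MpUg00090 and MpUg00130 lay between -0.19 and -0.15; their groups did not overlap, but none was called (edgeR adjusted p 0.0802 to 0.104). With limma voom all 4 were called, and by library totals all but MpUg00130. MpUg00450 was at -0.14 (edgeR adjusted p 0.242). The remaining 8, MpUg00070, MpUg00120, MpUg00160, MpUg00290, MpUg00360, MpUg00380, MpUg00390 and MpUg00410, lay between -0.045 and 0.085, and the groups overlapped in each.

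Both MpUg00140 and MpUg00150 dropped out of the expressed class in these libraries, MpUg00400 entered it, and 29 genes were in it in both female groups.

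The 13 genes that did not pass the filter had at most 20 counts in a library and were not tested. MpUg00190 stood out among them after its values were seen. It had 0 counts in Tak-2 and in all male libraries, but the libraries labelled Mpmri-1 held 1, 7 and 20 counts of it. Over the group this was at least 9.25-fold above the limit of 3 counts in Tak-2, and most of it came from replicate C. MpUg00250 had 0, 3 and 1 counts in Tak-2, where the libraries labelled Mpmri-1 had 7, 4 and 9.

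For the 8 U genes with several transcript models, the authors' counting divided reads between the models. Shares are given for each library with no test. The leading model of MpUg00020 held 61.7%, 61.4% and 63.0% of the gene's counts in Tak-2 and 60.3%, 56.2% and 62.4% in the libraries labelled Mpmri-1. The groups overlapped there, as they did for the leading models of MpUg00090 and MpUg00130. In MpUg00090, model 1 held 69.4%, 74.9% and 70.6% against 90.5%, 83.0% and 71.3%, so that replicates A and B lay apart and replicate C did not. In MpUg00130, model 1 held 74.5%, 76.7% and 76.6% against 86.4%, 79.8% and 68.2%.

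The first model of MpUg00410 held 23.6%, 11.2% and 5.39% in Tak-2. In the libraries labelled Mpmri-1 it held 3.82% in replicate A and nearly none in B and C. In MpUg00040, model 3 fell from 86.5%, 68.1% and 67.7% to 59.0%, 54.2% and 44.3% of a gene with few counts. Model 2 of MpUg00030 held 25.4%, 24.1% and 23.2% in Tak-2 and 31.9%, 29.8% and 28.0% in the libraries labelled Mpmri-1. Model 3 of MpUg00300 held 41.2%, 36.4% and 35.2% against 23.5%, 29.8% and 30.3%. MpUg00080, the eighth gene, is described with the male reads.

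**Figure D3:**
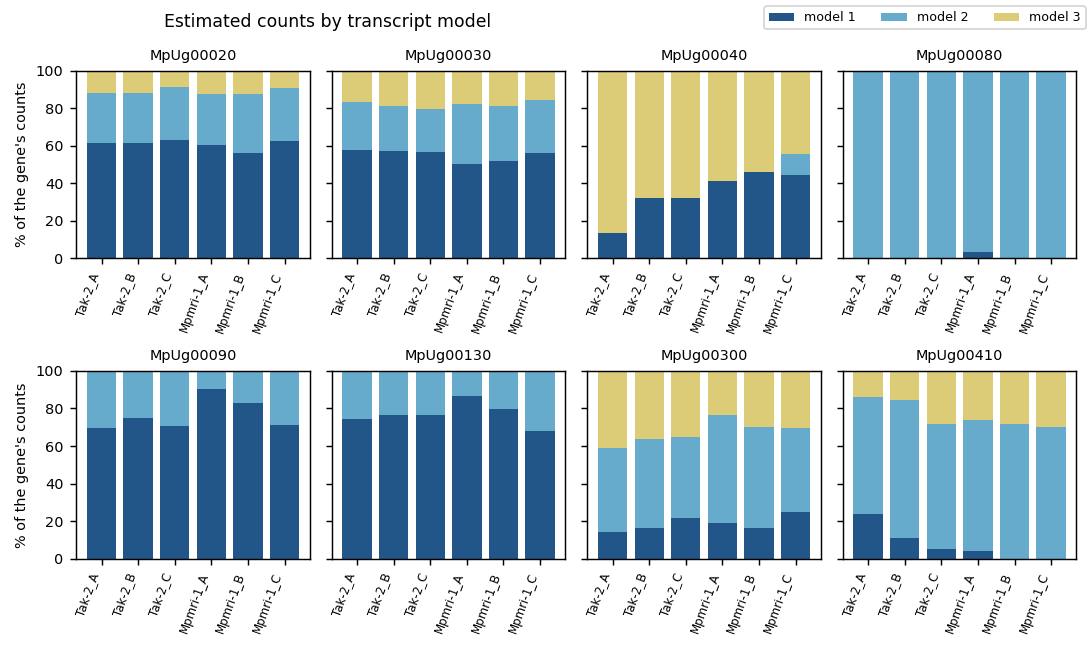
Share of a gene's estimated counts given to each transcript model (stacked bars, in %) in the 6 female libraries, for the 8 U genes with several models. Bars of MpUg00020 are alike in all libraries; model 1 of MpUg00410 falls from 23.6% in Tak-2 replicate A to 0 in Mpmri-1 replicate B.

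Male plants carry no U chromosome, so reads counted to U genes in male libraries are given next. Of 46 U genes, 34 had 0 counts in all 6 male libraries, and 23 of these were expressed in Tak-2. Against the limit of 3 counts over Tak-1, these 23 were at least 59.2-fold to at least 9000-fold higher in Tak-2. MpMYCX, MpRAB11AX, MpLOVU and MpROS1x were among the 34. Another 4 genes, MpUg00120, MpUg00200, MpUg00280 and MpUg00360, had 1 to 3 counts in a male group, and 8 genes had more than 3 counts over Tak-1 or Mpfer-1. In the comparison of Tak-2 with Tak-1, 35.1% of all genes tested were called, 17.1% higher in Tak-2 and 18.0% lower. Of the 33 U genes tested, 32 were called higher and 1 lower, but most passed the filter only through the female libraries and so had to differ.

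**Figure D4:**
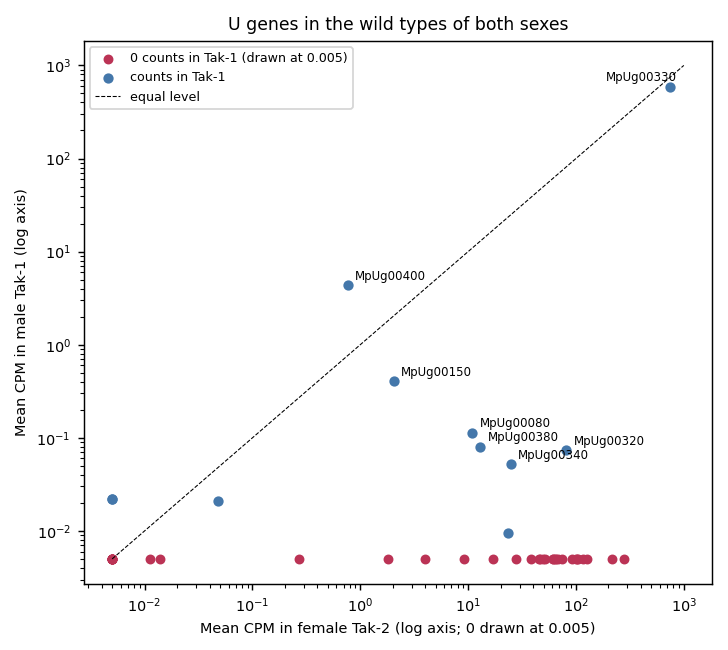
Mean level of each U gene in female Tak-2 (x axis) and male Tak-1 (y axis), both in CPM on log axes with 0 drawn at 0.005; the dashed line marks equal levels. Named points had more than 3 counts over Tak-1: MpUg00330 lies near the line and MpUg00400 above it, and the others lie below.

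MpUg00330 was the U gene with the most male reads. Tak-1 reached 616, 595 and 569 CPM, and Mpfer-1 reached 333, 375 and 339 CPM. Its level in Tak-1 was 80.3% of that in Tak-2, and its level in Mpfer-1 was 77.7% of that in the libraries labelled Mpmri-1. Tak-2 was higher than Tak-1 by 0.32 on the log2 scale (SE 0.082, edgeR adjusted p 0.0107), but by library totals without TMM this was 0.20 and not called (adjusted p 0.0602). The difference between the mutant lines, 0.36 (SE 0.082, edgeR adjusted p 0.00333), turned to -0.064 under that scaling.

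MpUg00330 fell in both lines. Mpfer-1 gave a log2 fold change of -0.77 (SE 0.082, edgeR adjusted p 1.01e-05), a 1.70-fold lower level, in a comparison in which 56.2% of all genes were called. The other line, against Tak-2, gave -0.72 (SE 0.082, edgeR adjusted p 1.30e-05), from 744, 725 and 747 CPM to 487, 415 and 444 CPM. The groups did not overlap in either comparison. The difference between both effects was 0.047 (SE 0.12, edgeR adjusted p 0.778). The origin of the male reads of this and the other U genes was not tested.

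**Figure D5:**
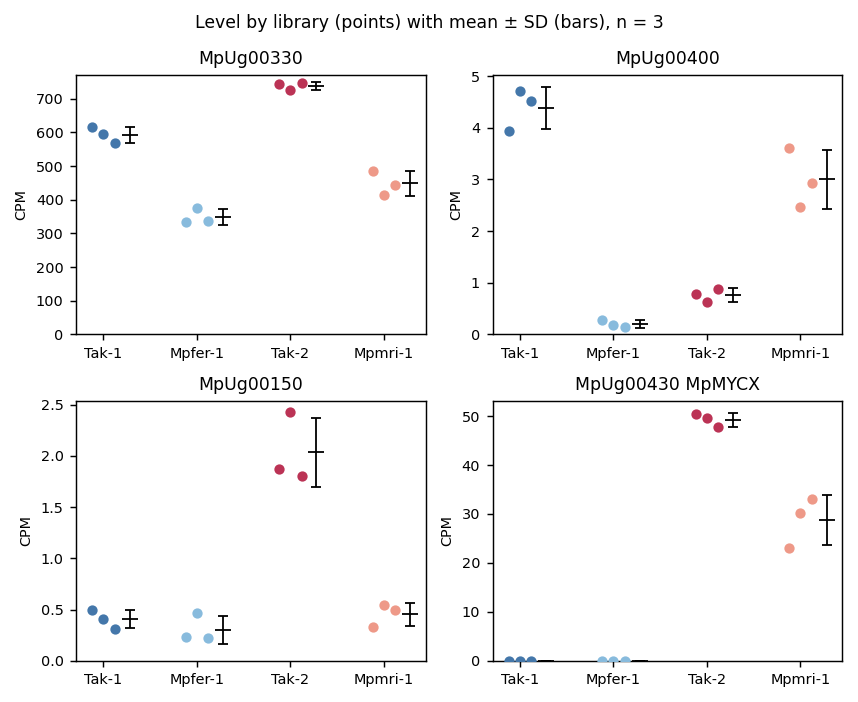
Level in CPM (y axis, from 0) of 4 U genes in the 4 groups (x axis); points are libraries, and bars are the mean ± SD (n = 3). MpUg00330 falls in both mutant groups, MpUg00400 is high in Tak-1 and in the libraries labelled Mpmri-1, MpUg00150 is highest in Tak-2, and MpMYCX is at 0 in males.

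MpUg00400 was higher in males than in females among the wild types, and the mutants moved in opposite directions. Tak-1 held 118, 150 and 158 counts (3.93, 4.72 and 4.51 CPM), whereas Mpfer-1 held 10, 6 and 6 (0.289, 0.185 and 0.146 CPM). In Tak-2 it had 19, 17 and 26 counts (0.792, 0.624 and 0.884 CPM). The libraries labelled Mpmri-1 held 77, 73 and 89 (3.61, 2.46 and 2.93 CPM). The 4 groups did not overlap, with Tak-1 highest, then the libraries labelled Mpmri-1, Tak-2 and Mpfer-1.

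In Mpfer-1, MpUg00400 was 21.6-fold lower than in Tak-1 (log2 fold change -4.40, SE 0.26, edgeR adjusted p 1.85e-07). The libraries labelled Mpmri-1 had a 3.82-fold higher level than Tak-2 (log2 fold change 1.96, SE 0.23, edgeR adjusted p 1.74e-05). The effects differed by 6.35 on the log2 scale (SE 0.35, edgeR adjusted p 3.64e-07), where 37.3% of all genes were called. Tak-2 was 5.72-fold lower than Tak-1 (log2 fold change -2.51, SE 0.23, edgeR adjusted p 1.13e-05). Of the 33 U genes tested, MpUg00400 and MpUg00330 were the 2 called in Mpfer-1 against Tak-1, both lower. Over all genes tested, 27.1% were called lower. Most of the 33 had 0 counts in all 6 male libraries and could not be called, so the shares are not comparable.

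Of MpUg00080, Tak-1 held 4, 3 and 4 counts and Mpfer-1 held 3, 5 and 8. In males these counts were in its model 1 alone, 11 over Tak-1 and 16 over Mpfer-1, and model 2 was at 0. In Tak-2 the reverse held: all counts, 266, 310 and 307, were in model 2. Model 1 had counts in 1 female library, Mpmri-1 replicate A, where it held 3.33% of the gene. The level of the whole gene in Tak-1 was 1.04% of that in Tak-2.

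The other genes with male reads had few of them. MpUg00320 had 2, 4 and 1 counts in Tak-1 and 3, 5 and 4 in Mpfer-1, against 1855, 2343 and 2372 in Tak-2, so that Tak-1 was at 0.0906% of Tak-2. MpUg00340 had 5 counts over Tak-1 and 5 over Mpfer-1, against 2004 over Tak-2. MpUg00380 had 8 counts over Tak-1 and 2 over Mpfer-1, against 1042 over Tak-2. Without Tak-1 replicate B its fall in Mpfer-1 was called (log2 fold change -2.31, edgeR adjusted p 0.0305), but with all libraries it was not (-1.94, SE 0.74, adjusted p 0.0574). MpUg00250 had 2 counts over Tak-1 and 9 over Mpfer-1, beside 4 over Tak-2 and 20 over the libraries labelled Mpmri-1. Its low level was shared by all 4 groups. Summed over the 38 genes without male reads above the limit, a male library held between 0 and 4 counts, against 37893 to 54595 in a female library. The male sum had to be low, as genes with more male reads were left out. Over all 46 U genes, a male library held 11569 to 20101 counts, against 50658 to 79605 in a female library. Nearly all of these male counts were of MpUg00330, which had 11541 to 19920 in a male library and 10389 to 21968 in a female library.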

How the data were processed

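A kit that keeps strand and selects mRNA was used, with added spike-in RNA, per the labels' protocols. The authors deposited estimated counts for 23399 transcript models in 12 libraries, not normalized. FastQC, fastp and DESeq2 are named in the submitters' processing notes without versions; for the aligner or quantifier, the build and the gene models, the sources used here name none. The table used here held 0 spike-in rows. Of the values of the U models, 77.4% were whole within 1e-09.

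Counts were summed to genes by removing the final dot and number, and rounded (a change of at most 0.5). Symbols came from the table of assembly MpTak2_v7.1, joined by locus number: all 46 members had a locus there, with the same number of models in 42. Over 17416 loci that number was equal in 90.2%, against 76.3% when shifted by 1. As that table lists 0 V loci, sums of U and V partners were not run, and no coordinates are given.

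Tests used edgeR 4.0.16 (R 4.3.3), quasi-likelihood F test, TMM factors between 0.798 and 1.19, edgeR's own low-count filter with default settings, 14044 genes tested, 1 mean per group and 8 residual degrees of freedom. Benjamini-Hochberg adjustment covered every gene tested, and adjusted p under 0.05 was called. The SE was obtained as the log2 fold change over the root of its F value. Alternatives used DESeq2 1.42.0 and limma 3.58.1. Folds against 0 counts are lower bounds against 3 counts over the group. The edgeR step was tested on simulated data. Within groups, replicate pairs differed by more than sampling noise (chi-square per degree of freedom 4.94 to 112), so none was treated as a duplicate. The values were 56.6 to 112 for the libraries labelled Mpmri-1 and 8.54 to 20.7 for Tak-2. They were 4.94 to 29.1 for Tak-1 and 19.4 to 35.6 for Mpfer-1.

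The members and gene lists were chosen with earlier results of these data known. Named genes are members with a symbol, the 10 with the most reads in Tak-2, those called between Mpmri-1 and Tak-2 with a log2 change of 1 or more in size, and those with over 3 counts in a male group. Others named were chosen after their values were seen, as was the test of the difference between both mutant effects.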

Additional observations from a re-analysis of the deposited data

Results flagged for a closer look

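Among the tested U genes with more than 3 counts in a male group, the effects of 2 differed between the male and the female line. Over all genes tested, 37.3% were called for this difference, so the count alone does not set U genes apart. For MpUg00400 the effect in the libraries labelled Mpmri-1 exceeded that in Mpfer-1 by 6.35 on the log2 scale (edgeR adjusted p 3.64e-07), with a fall in 3 of 3 Mpfer-1 libraries and a rise in 3 of 3 libraries labelled Mpmri-1. For MpUg00150 the difference was -1.70 (SE 0.47, edgeR adjusted p 0.0159), where Mpfer-1 gave -0.43 (SE 0.35) and the other line -2.13 (SE 0.30). Line, sex and targeted gene cannot be told apart in either.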

How the results depend on the processing

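Of the 17 calls in the libraries labelled Mpmri-1 against Tak-2, 12 were kept in all 15 alternatives (10 lower, 2 higher), and all 17 kept their sign; counts of calls lay between 15 and 23, the latter with limma voom. The median log2 fold change of U genes (-0.14) was -0.27 by library totals without TMM, -0.051 with no filter on low counts, and between -0.167 and -0.046 when 1 library was left out; the cause was not tested. With at least 10 counts over a male group required, 5 genes had male reads in place of 8. With the replicate block (letters A, B and C), 16 genes were called; MpLOVU (adjusted p 0.0556) and MpRAB11AX (adjusted p 0.0953) were lost and MpUg00040 was gained. Same-letter deviations of Tak-2 and Mpmri-1 libraries correlated at 0.0827, 0.0822 and 0.206 across genes, and different-letter ones at -0.186 to 0.115. For Tak-1 and Mpfer-1 the same letters gave 0.216, 0.0402 and 0.123, and different letters -0.153 to 0.0145. Between the mutant lines the same letters gave -0.104, -0.324 and -0.228. These values do not settle whether letters mark pairs, and the main test did not use them. Reversed signs were all in values not called in the alternative. MpUg00380 in the libraries labelled Mpmri-1 (0.011) was -0.13 by totals, -0.053 without Tak-2 replicate C, and between -0.07225 and 0.1146 when other libraries were left out, with -0.024 without Mpmri-1 replicate A. MpUg00330 between the mutant lines was -0.064, and its difference of effects -0.27, by totals, and the latter ran from -0.017 (without Mpmri-1 replicate A) to 0.098. MpUg00340 in Mpfer-1 (-0.15) was 0.017 by totals, 0.53 without Tak-1 replicate B and 0.39 without Mpfer-1 replicate A, within a range of -0.85 to 0.53. Genes at a few counts per library are limited by depth.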
